A study of Homo sapiens with 6 samples.

Results

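MALAT1, NEAT1, TUG1, KCNQ1OT1, NORAD, PVT1, CYTOR, MIR22HG and H19 are long noncoding RNAs, transcripts that carry out their roles without being translated. Several of them are retained in the nucleus and several respond to DNA damage or other stress. These 9 genes were taken by name from the 61552 genes listed for each library, from a list drawn up with earlier results of these data known. The RNA came from NCI-H520, an established cell line from a human squamous lung cancer, labelled WT for genotype. One group of 3 libraries received phosphate-buffered saline (PBS) for 48 h. The other, also of 3, received cisplatin at 2 µM for the same time; this platinum compound forms crosslinks in DNA. The labels do not say whether the libraries came from separate cultures, so the p-values measure the spread between these libraries, which may be technical.

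The comparison asks how the cells' RNA differs after the drug. Libraries held 9121180 to 16724285 expected counts, estimated read counts that need not be whole. The 9 genes together took 0.184% to 0.334% of each library. The share of counts from mitochondrially encoded genes was 4.15% to 6.05% with PBS and 3.26% to 4.13% with cisplatin. Of 11 squamous markers, 7 passed the low-count filter. Among the defining ones, SOX2 averaged 309 ± 24.2 CPM (normalised read counts, scaled to library size; SD, n = 3) with PBS and 323 ± 26.7 with cisplatin, while DSG3 had no count in any library and TP63 and KRT14 did not pass the filter. Of the 7 that were tested, KRT15, TRIM29 and SERPINB5 rose, by 0.94, 1.29 and 1.33 on the log2 scale (edgeR adjusted p = 0.00271, 3.5e-05 and 0.00498), and none was called lower. Summed markers of other cell types moved between the groups, in most cases through 1 gene. Neuroendocrine markers summed to 218 to 252 CPM with PBS and 305 to 317 with cisplatin, and NEUROD1 had no count. CHGB made up nearly all of this sum and rose by 0.41, while SYP (-0.55) and INSM1 (-0.24) were not called. Fibroblast markers summed to 10.5 to 15.3 and 23.0 to 24.5 CPM with COL3A1 at 0, lung glandular markers to 4.47 to 5.66 and 7.61 to 7.95 with SCGB1A1 at 0, and immune markers to 1.90 to 2.31 and 3.70 to 4.58 with PTPRC and CD3E at 0. In the last 2 lists the called markers moved both ways: NKX2-1 rose by 0.81 and SFTPA1 fell by 1.21, and LYZ rose by 1.84 and CD14 fell by 0.98. Endothelial sums overlapped, at 0.329 to 1.05 and 0.498 to 1.25 CPM, with ERG at 0. Whether these shifts have a part in the results below was not tested. In RNA from whole cultures, fewer cells of a type and less RNA per cell cannot be told apart.

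MALAT1 accumulates in nuclear speckles, bodies rich in splicing factors. NEAT1 is made as a short, polyadenylated form and a long form that share one start; the long form is the scaffold on which paraspeckles assemble with proteins such as NONO and SFPQ. TUG1 and KCNQ1OT1 have been linked to gene silencing, the latter at an imprinted cluster on the short arm of chromosome 11, where H19 also lies. NORAD is a cytoplasmic RNA that binds Pumilio proteins. PVT1 lies beside the MYC gene, CYTOR has a copy named MIR4435-2HG that shares part of its sequence, and MIR22HG is the host transcript of the microRNA miR-22.

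The ends of NEAT1 and MALAT1 are shown because they separate the NEAT1 forms and the lengths given later turn on them. The short NEAT1 form ends at a polyadenylation signal, here bases 2935 to 2994 of transcript NEAT1-208, with the AATAAA in capitals. The same end falls at base 3716 of NEAT1-202, the long transcript of 22743 bases. The last 100 bases of the long form, 22644 to 22743, and bases 8256 to 8355 of MALAT1-202 hold the U-rich and A-rich stretches known to fold into a protective triple helix. Capitals there mark runs of at least 10 bases found in both windows, which are 16 and 11 bases long. All were read from GENCODE 29 transcripts (GRCh38) and are written with T.
NEAT1 short end: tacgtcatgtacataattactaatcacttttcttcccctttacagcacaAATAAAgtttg
NEAT1 long end: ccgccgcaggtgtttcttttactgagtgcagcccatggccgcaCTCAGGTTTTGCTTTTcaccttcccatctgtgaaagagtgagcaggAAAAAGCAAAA
MALAT1 end: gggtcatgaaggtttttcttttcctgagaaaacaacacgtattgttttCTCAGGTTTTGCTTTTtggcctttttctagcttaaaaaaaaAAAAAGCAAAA

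NORAD is known for its repeated Pumilio elements, written TGTANATA and counted on the transcript strand. Bases 1432 to 1468 of NORAD-201 carry a pair of them, in capitals.
NORAD pair: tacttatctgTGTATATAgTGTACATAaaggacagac
The 5339-base transcript held 15 such elements, or 2.81 per kb. Among 5252 genes whose longest transcript has at least 5000 bases, 55.3% held at least 1 element and the median was 0.11 per kb. The density of NORAD or more was reached by 2 of them, NORAD itself included. Of the other 8 genes, NEAT1 held 6, TUG1 2 and KCNQ1OT1 9 in transcripts of 22743, 7469 and 91667 bases, and the rest held none. A match is a description of the letters only.

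Levels of different genes were compared in TPM, which divides by transcript length. MALAT1 was the highest, at a mean of 510 TPM over the 6 libraries, and ranked 7 among 15816 lncRNA genes. CYTOR followed at 56.1, NORAD at 49.3, NEAT1 at 48.1, TUG1 at 32.9 and PVT1 at 22.1 TPM. Over the 6 libraries the ranges of CYTOR, NORAD and NEAT1 overlapped, but the order of the first 2 differed by group. With PBS, NORAD (47.26 to 63.64 TPM) lay just above CYTOR (40.37 to 47.2), and NEAT1 (39.95 to 48.51) overlapped both. With cisplatin, CYTOR (59.36 to 75) lay above NORAD (44.05 to 46.57). NEAT1 (47.49 to 62.5) then lay above NORAD and overlapped CYTOR. MIR22HG averaged 1.75 and KCNQ1OT1 0.42 TPM, and H19 was at 0.

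H19, an imprinted transcript and the host of miR-675, lies at chr11:1995176-2001470 on the minus strand and had no count in any of the 6 libraries. A count of 0 allows up to 3 counts, which here is 0.179 to 0.329 CPM, a limit for counting error only. It was therefore not tested. The other 8 lncRNAs passed the low-count filter and were tested with edgeR's quasi-likelihood test among 15063 genes. At an adjusted p (Benjamini-Hochberg) under 0.05, 4 of these 8 were called: CYTOR and MIR22HG were higher with cisplatin, and KCNQ1OT1 and NEAT1 were lower. The background was large, since 38.2% of all tested genes were called, 18.9% higher and 19.3% lower. Of 1558 tested lncRNA genes, 29.8% were called, 15.2% higher and 14.6% lower. With 2 of 8 in each direction, the share of called members was near that background. Values in CPM did not overlap between the groups for 5 of the 8, against 49.7% of all tested genes. The median log2 fold change was -0.17 over the 8, -0.00 over all tested genes and 0.03 over the lncRNA genes.

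**Figure D1:**
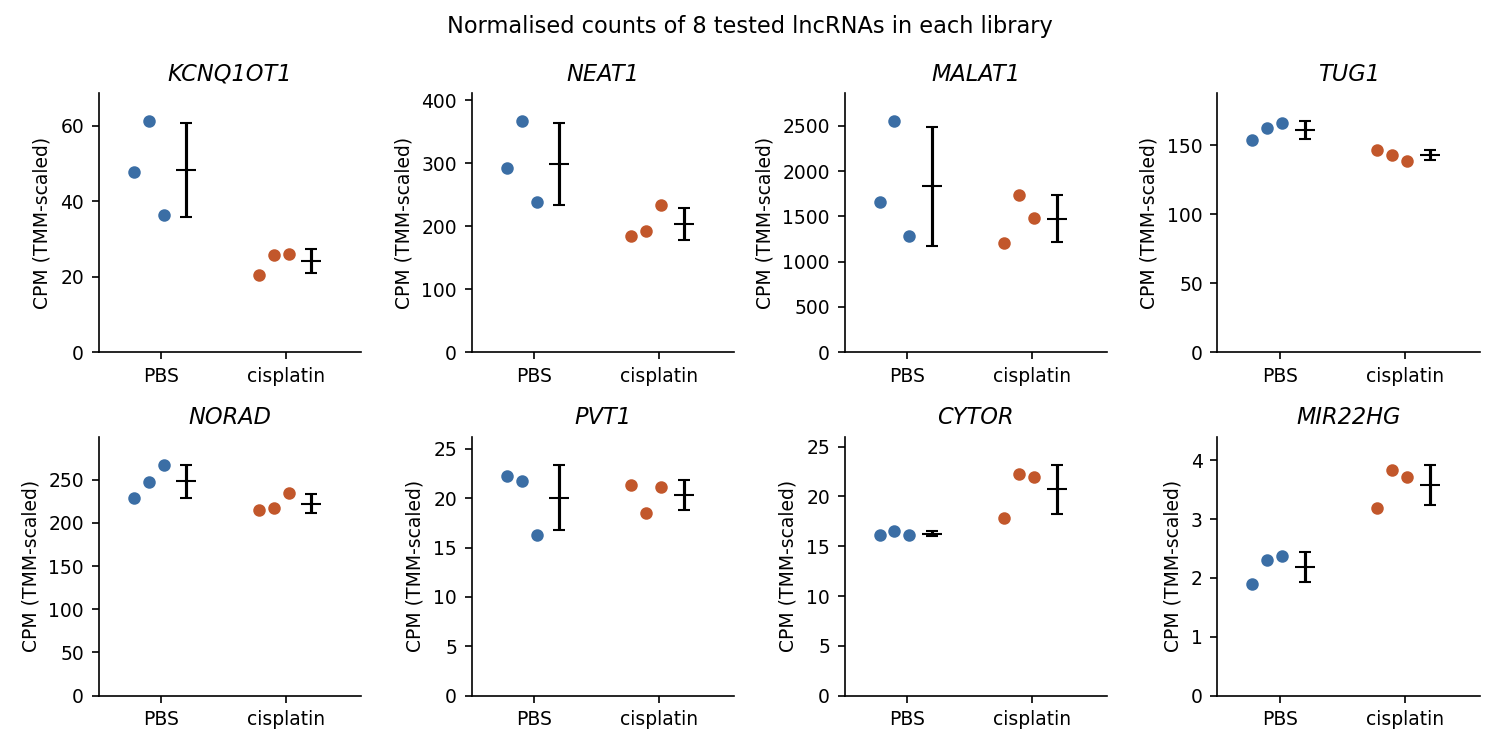
CPM (linear axis from 0, scaled by TMM) of the 8 tested lncRNAs, with 1 point per library, the horizontal tick at the mean and the bar at ± 1 SD of 3 libraries. KCNQ1OT1, NEAT1 and TUG1 lie lower in all 3 cisplatin libraries than in any PBS library, CYTOR and MIR22HG lie higher, and MALAT1, NORAD and PVT1 overlap.

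KCNQ1OT1 fell most. This antisense transcript from an intron of KCNQ1, known for silencing neighbouring genes on the paternal chromosome, is annotated as 1 unspliced transcript of 91667 bases at chr11:2608328-2699994, minus strand. It measured 47.7, 61.2 and 36.3 CPM with PBS and 20.5, 25.7 and 26.1 CPM with cisplatin. Every cisplatin library was below every PBS library, and the PBS libraries were the more scattered. The mean went from 48.4 ± 12.5 to 24.1 ± 3.13 CPM (SD, n = 3). Its fitted change was -0.998 ± 0.16 on the log2 scale (SE; edgeR adjusted p = 6.4e-04), a fold of 0.501 with a 95% interval of 0.392 to 0.640. Without PBS replicate 2, the highest library, it was smaller at -0.77 and still called (edgeR adjusted p = 0.00174). In TPM it read 0.54, 0.69 and 0.48 with PBS and 0.23, 0.29 and 0.29 with cisplatin. The call was lost after the correction for transcript length (-0.01, edgeR adjusted p = 0.933). It was also lost with limma on log2(TPM + 1) (-0.30, adjusted p = 0.0665), a scale on which low values move little. With limma on log2(TPM + 0.1) the call was kept, close to the threshold (-0.85, adjusted p = 0.0467).

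Of 17 listed genes of the imprinted cluster and its surroundings on chromosome 11, 8 passed the filter, and 2 of these rose and 1 fell, against 18.9% higher and 19.3% lower over all tested genes. The counts were 3 and 1 without PBS replicate 2, 1 and 1 without cisplatin replicate 3, and 1 and 2 after a correction for transcript length described below. Limma on log2(TPM + 1) gave 1 and 0. CD81, a tetraspanin, rose by 0.38 ± 0.07 on the log2 scale (171 to 222 CPM; edgeR adjusted p = 0.00121). SLC22A18, a transporter gene of the imprinted domain, rose by 0.71 ± 0.19 (3.55 to 5.81 CPM; edgeR adjusted p = 0.0114). CDKN1C, an inhibitor of the cell cycle and a known target of KCNQ1OT1 silencing, averaged 1.55 ± 0.218 CPM with PBS and 2.30 ± 0.296 with cisplatin, a log2 change of 0.56 ± 0.25 that missed the threshold (edgeR adjusted p = 0.0941). KCNQ1, the potassium channel gene whose intron holds KCNQ1OT1, had 11, 20 and 15 counts with PBS and 2, 1 and 5 with cisplatin. Its log2 fold change was -2.46 ± 0.45 (edgeR adjusted p = 0.00133). In TPM, KCNQ1 read 0.45, 0.5 and 0.49 with PBS and 0.64, 0.03 and 0.48 with cisplatin, which overlap. The use of strand in the counting is not given in the sources used here. If strand was not used, reads of KCNQ1 and KCNQ1OT1 cannot be told apart where they overlap. Their annotated exons share 121 bases, 0.132% of KCNQ1OT1, on opposite strands. The median log2 change over the 8 was 0.11, and it was -0.10 after the length correction and just under 0 without PBS replicate 3 or cisplatin replicate 3. IGF2, the partner of H19 in imprinting, reached at most 10 counts and was not tested.

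NEAT1 gave fewer counts and a shorter mean transcript with cisplatin. It lies at chr11:65422774-65445540, plus strand. It measured 292, 366 and 238 CPM with PBS and 184, 193 and 233 CPM with cisplatin. The groups did not overlap, but PBS replicate 3 and cisplatin replicate 3 were nearly level. The mean went from 299 ± 64.6 to 203 ± 26.1 CPM, which edgeR fitted as -0.55 ± 0.14 on the log2 scale (SE; adjusted p = 0.00699), or 1.47-fold lower. Without PBS replicate 2, the highest library, the change was smaller at -0.37 and still called (edgeR adjusted p = 0.0255).

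The deposited tables give for each gene a mean transcript length weighted by the estimated abundance of its isoforms, so this length moves when the mix of isoforms does. For NEAT1 it was 7961, 9561 and 6240 bases with PBS and 4379, 4352 and 4081 bases with cisplatin. All 3 cisplatin libraries were below the shortest PBS value, and they lay within a narrow band. The mean fell from 7921 ± 1661 to 4271 ± 165 bases, and so fell by 46.1%. The exact two-sided permutation test gave p = 0.1 (0.15 adjusted over 6 lncRNAs), the smallest that 3 against 3 can give. Of 12873 tested genes whose length varied, 28, with NEAT1 among them, had a length ratio at or below that of NEAT1. Among 1735 genes with at least 1000 counts in every library, NEAT1 had the lowest ratio, at a log2 of -0.89, followed by SHROOM3 at -0.76 and PEG10 at -0.74. Lengths depend on the isoforms the authors' quantifier knew, and 15 NEAT1 isoforms were in its table, 7 of them with no length in GENCODE 29.

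TPM of NEAT1 went the other way, since TPM divides the counts by this length. It was 39.95, 40.71 and 48.51 with PBS and 47.49, 49.45 and 62.5 with cisplatin. The groups overlapped at PBS replicate 3. The means were 43.1 ± 4.74 and 53.1 ± 8.16 TPM, and limma on log2(TPM + 1) gave 0.29 (adjusted p = 0.140), which is not called. NEAT1 was thus lower in reads and, without passing the test, higher in estimated molecules.

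The mean length can be restated as a share of long molecules if every NEAT1 molecule is taken as either 22743 or 3524 bases. This is a simplification, since the isoforms known to the quantifier also included lengths from 512 to 3441 bases. The files give no share per isoform, and another short length would give other shares, which were not computed. On that reading the long form made up 23.1%, 31.4% and 14.1% of NEAT1 molecules with PBS and 4.45%, 4.31% and 2.90% with cisplatin. The long form would then be 9.62 ± 2.99 TPM with PBS and 2.02 ± 0.179 with cisplatin, and the short form 33.4 ± 7.25 and 51.1 ± 8.34 TPM. These figures are a conversion of the lengths above and not a second measurement.

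**Figure D2:**
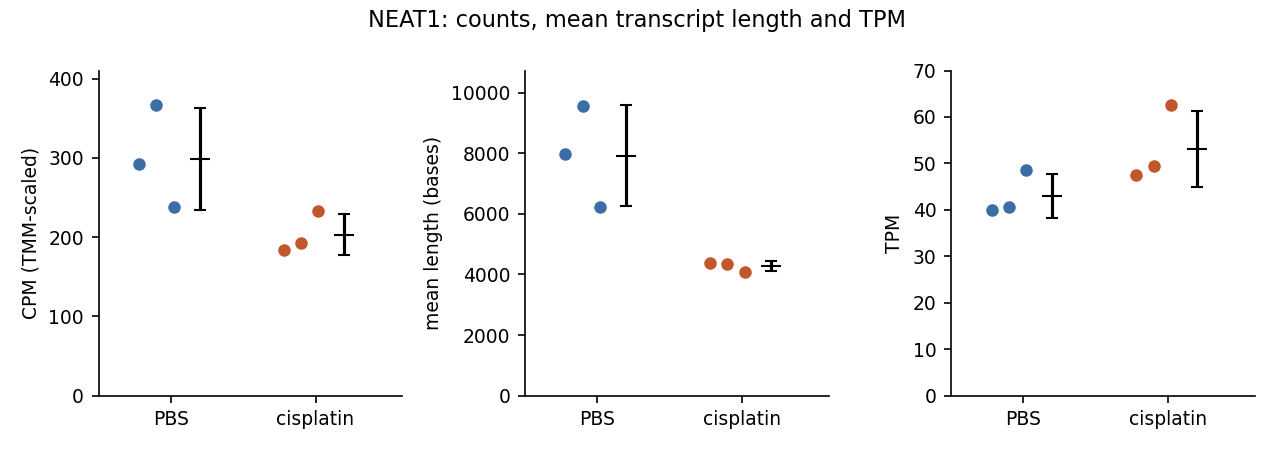
NEAT1 in 3 deposited or derived quantities, each on a linear axis from 0 with 1 point per library, a tick at the mean and a bar of ± 1 SD of 3 libraries. CPM and mean transcript length in bases are lower in all 3 cisplatin libraries, while TPM overlaps between the groups.

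All 34 listed genes of paraspeckle proteins passed the filter, and 18 fell and 1 rose, against 19.3% and 18.9% of all tested genes. Their median log2 change was -0.23, and it was negative under every alternative tried. SFPQ, which the long NEAT1 form needs as a core partner, fell from 368 to 313 CPM (-0.23 ± 0.07, edgeR adjusted p = 0.0184). HNRNPR and HNRNPUL1, both RNA-binding proteins, fell by 0.51 and 0.41 on the log2 scale (edgeR adjusted p = 2.0e-04 and 0.00201). BCL11A, a transcriptional repressor, fell by 1.08, from 11.1 to 5.30 CPM (edgeR adjusted p = 1.8e-04). RBM7, an adaptor that brings RNAs to the nuclear exosome, was the one that rose, by 0.59 (edgeR adjusted p = 0.0134). The core proteins NONO (886 and 841 CPM, -0.07) and PSPC1 (69.2 and 76.5 CPM, 0.14) did not pass the test. The count of lower genes was 9 without cisplatin replicate 1 and 11 without cisplatin replicate 2, and it was 18 after the length correction.

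MALAT1 was the most variable of the abundant members. It lies at chr11:65497688-65506516, plus strand, downstream of NEAT1. It measured 1657, 2551 and 1282 CPM with PBS and 1208, 1731 and 1481 CPM with cisplatin. The groups overlapped, and PBS replicate 2 stood above the other 5 libraries. That library was also the highest for NEAT1 (366 CPM) and KCNQ1OT1 (61.2 CPM). The log2 fold change of -0.31 ± 0.20 was not called (edgeR adjusted p = 0.232), and its 95% interval ran from -0.74 to 0.12. In TPM the means were 560 ± 174 and 460 ± 89.2. One library decided the value: without PBS replicate 2 it was 0.01 (edgeR adjusted p = 0.954), and without PBS replicate 3 it was -0.52 and called (0.0329). It was also called when no low-count filter was used (-0.30, edgeR adjusted p = 8.4e-04), with the change itself almost the same. In that setting the edgeR adjusted p also fell for NEAT1 (3.2e-09) and KCNQ1OT1 (6.5e-18), again at nearly the same change. For TUG1 (0.177) and NORAD (0.210) it rose. The mean transcript length was 3955, 3785 and 3834 bases with PBS and 3587, 3517 and 3765 with cisplatin; the mean fell by 6.09% and the groups did not overlap.

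Of 26 listed genes of nuclear speckle proteins and MALAT1 partners, 10 fell and none was called higher by edgeR, DESeq2 or limma-voom (2 were higher at an unadjusted p under 0.05 by each), against 18.9% higher and 19.3% lower over all tested genes. SRRM2 and SON, the scaffold proteins of speckles, fell from 1010 to 667 CPM (-0.60 ± 0.09, edgeR adjusted p = 2.9e-04) and from 551 to 394 CPM (-0.48 ± 0.08, edgeR adjusted p = 5.4e-04). The splicing factor SRSF4 fell by 0.53 (edgeR adjusted p = 3.5e-04). Upper quartile scaling and a filter of 50 counts each called 2 genes of this list higher, and 10 lower. The length correction called 1 higher and 12 lower, and leaving out mitochondrially encoded genes gave 1 and 10. METTL16, a methyltransferase that binds the MALAT1 triple helix, fell by 0.40 ± 0.10, from 46.5 to 35.0 CPM (edgeR adjusted p = 0.00621), a gene named after its value was seen.

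A list of enzymes and exosome factors around the processing of MALAT1 and NEAT1 ends also took in microRNA-pathway genes, which are not given that role here. Of its 23 tested genes, 3 rose and 6 fell, with a median of -0.03. These shares are near the 18.9% higher and 19.3% lower of all tested genes. POP5 and POP4, protein subunits of RNase P, which cuts both RNAs just after the A-rich stretch shown above, rose by 0.53 and 0.28 on the log2 scale (edgeR adjusted p = 5.9e-04 and 0.0146). ELAC2, the tRNA 3′-end nuclease, fell by 0.33 (edgeR adjusted p = 0.00515). DGCR8 and DICER1, of the microRNA pathway, fell by 0.38 (51.6 to 39.7 CPM) and by 0.86 (154 to 84.4 CPM), with edgeR adjusted p = 0.00329 and 1.6e-05.

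TUG1, at chr22:30969245-30979395 on the plus strand, changed little and evenly. It measured 154, 163 and 166 CPM with PBS and 146, 143 and 139 CPM with cisplatin. The groups did not overlap and each was tight. The log2 change of -0.17 ± 0.07 missed the threshold (edgeR adjusted p = 0.0666), with a 95% interval of -0.32 to -0.02. In TPM the libraries read 31.4, 33.1 and 40.0 with PBS and 32.9, 30.9 and 28.8 with cisplatin, which overlap. Mean transcript length was 5435, 5372 and 5344 bases with PBS and 4977, 5104 and 5169 with cisplatin; the mean fell by 5.58% and the groups did not overlap.

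Among the silencing proteins that TUG1 and KCNQ1OT1 have been linked to, Polycomb subunits and other silencing factors, 8 of 19 fell and 1 rose, against 18.9% higher and 19.3% lower over all tested genes, with a median of -0.19. EZH2, the Polycomb methyltransferase, was not called (60.9 and 55.7 CPM, -0.13). The 3 that fell with the smallest adjusted p were CTCF, an insulator protein, by 0.73 on the log2 scale, HNRNPU, a nuclear scaffold protein, by 0.59, and UHRF1, which guides maintenance DNA methylation, by 0.58 (edgeR adjusted p = 2.4e-05, 1.6e-04 and 9.3e-04). CBX7, a Polycomb reader, rose by 0.48 (5.49 to 7.59 CPM, edgeR adjusted p = 0.0294).

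NORAD, at chr20:36045622-36050960 on the minus strand, measured 229, 248 and 267 CPM with PBS and 215, 217 and 235 CPM with cisplatin. Cisplatin replicate 3 reached above PBS replicate 1, so the groups overlapped. The log2 change was -0.16 ± 0.08 and not called (edgeR adjusted p = 0.122). TPM averaged 53.7 ± 8.73 and 45.0 ± 1.38. Of its 50-base words, 30.3% also occur in other genes on the same strand, 22.7% in OVCH1-AS1, so its counts depend on how shared reads were divided.

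Of 13 genes of Pumilio proteins and NORAD partners, 6 fell and 0 were called higher by edgeR, DESeq2 or limma-voom (also 0 at an unadjusted p under 0.05), against 18.9% higher and 19.3% lower over all tested genes; the length correction called 1 higher. PUM2, one of the Pumilio proteins that NORAD binds, fell from 133 to 92.0 CPM (-0.53 ± 0.08, edgeR adjusted p = 3.4e-04). The cohesin subunits SMC1A and SMC3 fell by 0.50 each on the log2 scale (edgeR adjusted p = 3.0e-04 and 3.5e-04).

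PVT1, at chr8:127794533-128101253 on the plus strand, did not differ beyond the spread of its libraries. It measured 22.2, 21.8 and 16.2 CPM with PBS and 21.3, 18.5 and 21.1 CPM with cisplatin. PBS replicate 3 was the lowest and the groups overlapped. The log2 change was 0.03 ± 0.13 (edgeR adjusted p = 0.891), and the 95% interval of the fold was 0.839 to 1.24. TPM averaged 22.5 ± 1.59 and 21.7 ± 0.484. The annotation behind the counts listed 183 PVT1 isoforms, of which 163 had no length in GENCODE 29, and its mean length overlapped between the groups. MYC, its neighbour 53.1 kb away and a growth-promoting transcription factor, was lower by 0.25 ± 0.08 (edgeR adjusted p = 0.0259).

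CYTOR rose by counts, with a qualification from its copy. It lies at chr2:87454781-87636740, plus strand. It measured 16.1, 16.5 and 16.2 CPM with PBS and 17.8, 22.3 and 21.99 CPM with cisplatin. PBS libraries were nearly identical, all cisplatin libraries were higher, and cisplatin replicate 1 rose least. The fitted change was 0.35 ± 0.11 on the log2 scale (SE; edgeR adjusted p = 0.0263), a fold of 1.28. TPM was 43.9, 40.4 and 47.2 with PBS and 59.4, 75.0 and 70.6 with cisplatin. The mean length was shorter in all cisplatin libraries, from 749 ± 27.1 to 646 ± 7.75 bases. The call did not survive leaving out PBS replicate 1 (edgeR adjusted p = 0.0612) or 3 (0.0628), or cisplatin replicate 2 (0.0860) or 3 (0.0949), nor did DESeq2 give it (adjusted p = 0.0544).

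MIR4435-2HG shares 16.0% of the 50-base words of CYTOR, and reads of the shared stretches could have been divided either way. It measured 41.1, 42.2 and 34.3 CPM with PBS and 33.6, 37.6 and 38.7 CPM with cisplatin, which overlap, and its log2 change of -0.09 was not called (edgeR adjusted p = 0.498). Its mean length went from 1391 ± 56.8 to 862 ± 36.3 bases, and its TPM from 40.6 ± 2.26 to 71.2 ± 2.76. With the counts of CYTOR and MIR4435-2HG summed, the log2 change was 0.05 ± 0.09 (edgeR adjusted p = 0.682). The summed counts thus did not pass the test, whereas in TPM both genes were higher in all 3 cisplatin libraries; whether the division of shared reads has a part in the CYTOR call was not tested.

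The promoter of CYTOR is shown because CYTOR is one of the members that rose. The RefSeq window from 250 bases before to 50 after a start, chr2:87455177-87455476 (GRCh38.p14, plus strand), was searched on both strands for the letters TGANTCA of AP-1, the SOX core CTTTGT, the E-box CACGTG, the SP1 box GGGCGG, the TATA box TATAAA, the CCAAT box and the cAMP response core TGACG. Matches are in capitals.
CYTOR promoter: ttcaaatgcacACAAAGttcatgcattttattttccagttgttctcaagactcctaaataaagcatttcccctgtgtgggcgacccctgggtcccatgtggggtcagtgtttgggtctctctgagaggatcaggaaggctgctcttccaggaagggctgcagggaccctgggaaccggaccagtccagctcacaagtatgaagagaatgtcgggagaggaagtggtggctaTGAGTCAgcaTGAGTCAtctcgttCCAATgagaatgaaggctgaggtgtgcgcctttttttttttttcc
It held 2 AP-1 matches, 1 SOX core and 1 CCAAT. Of 35116 promoters of that length, 7.71% held TGANTCA at all and 0.515% at least 2 matches, while 16.1% held the SOX core and 34.6% CCAAT. The start chosen by RefSeq need not be the one used in these cells.

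MIR22HG rose and was low throughout. It lies at chr17:1711493-1717174, minus strand, and carries miR-22 within it. It had 17, 35 and 34 counts with PBS and 32, 43 and 62 with cisplatin, which is 1.90, 2.30 and 2.37 CPM and 3.19, 3.83 and 3.73 CPM. No cisplatin library fell within the PBS range. The fitted change was 0.69 ± 0.21 on the log2 scale (SE; edgeR adjusted p = 0.0194), a fold of 1.62 with a 95% interval of 1.19 to 2.21. TPM was 0.86, 1.59 and 1.3 with PBS and 1.97, 2.64 and 2.11 with cisplatin. The call was lost on leaving out PBS replicate 1 (edgeR adjusted p = 0.0549), or cisplatin replicate 2 (0.0602) or 3 (0.0666), with DESeq2 (adjusted p = 0.0898) and on log2(TPM + 0.1) with limma (0.0609).

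The mature miR-22 arms from RefSeq (GRCh38.p14), with the seed of bases 2 to 8 in capitals, lie at chr17:1713914-1713935 and chr17:1713952-1713973 on the minus strand. They are shown because the host transcript is read here and the mature RNA is not; its level was not measured.
miR-22-3p: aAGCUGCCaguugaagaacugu
miR-22-5p: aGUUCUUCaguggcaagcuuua
The promoter window chr17:1716161-1716460 (minus strand), searched in the same way, held 3 SP1 boxes, 2 CCAAT boxes and 1 cAMP response core, in capitals. Of the 35116 promoters, 45% hold the SP1 box, 34.6% the CCAAT box and 24.6% the cAMP response core. At least 3 SP1 boxes stand in 15.8% and at least 2 CCAAT boxes in 10.8%.
MIR22HG promoter: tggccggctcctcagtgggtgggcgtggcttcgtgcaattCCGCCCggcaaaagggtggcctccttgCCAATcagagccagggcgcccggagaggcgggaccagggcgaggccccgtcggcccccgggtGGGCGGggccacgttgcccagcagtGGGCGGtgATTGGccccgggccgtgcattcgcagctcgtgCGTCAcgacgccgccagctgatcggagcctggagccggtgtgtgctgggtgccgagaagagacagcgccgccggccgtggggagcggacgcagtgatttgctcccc

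Of 27 tested genes listed as neighbours of the members, 5 rose and 6 fell, with a median of -0.06, close to the background. Not all of them lie close. PRR14L and RBM39, both called lower, lie 697 kb from TUG1 and 303 kb from NORAD. MIR4435-2HG lies 23400 kb from CYTOR. Both counts were 3 without PBS replicate 1 or cisplatin replicate 3 and with limma on log2(TPM + 1). TLCD2, 1.06 kb from MIR22HG, rose with it, from 1.76 to 3.57 CPM (1.03 ± 0.24, edgeR adjusted p = 0.00529), while WDR81, which overlaps the span of MIR22HG, was level (21.7 and 21.8 CPM, 0.00). FRMD8, 9.25 kb from NEAT1, rose by 0.35 (edgeR adjusted p = 0.0317), opposite in sign to the counts of NEAT1. LTBP3, 32.3 kb from MALAT1 and a carrier of latent TGF-β, rose by 0.70 (edgeR adjusted p = 2.2e-04). MORC2, 0.947 kb from TUG1 and a silencing factor itself, fell by 0.26 (edgeR adjusted p = 0.0246).

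**Figure D3:**
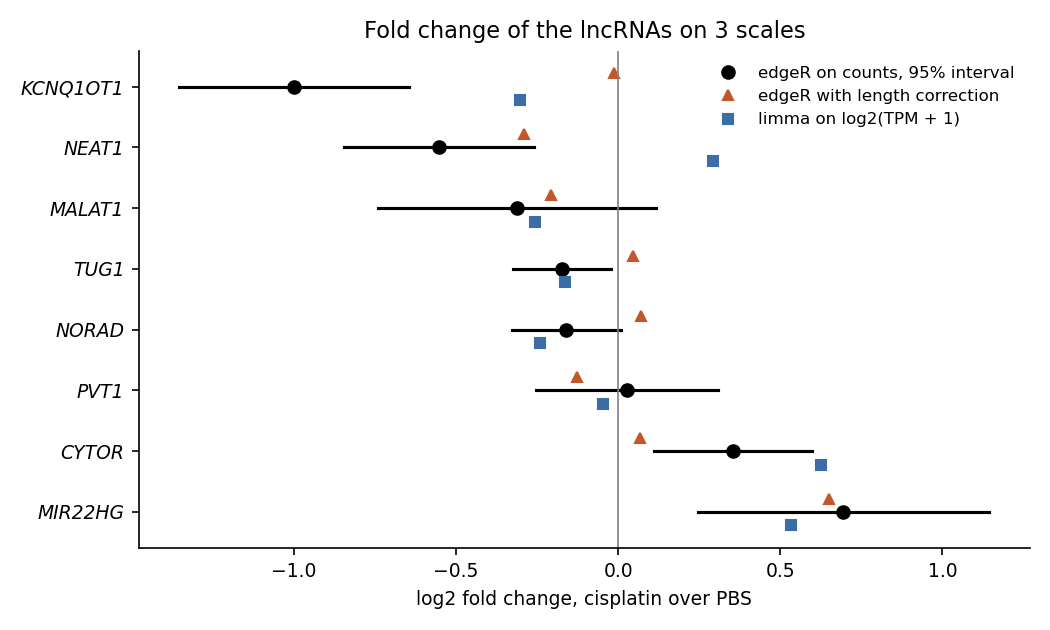
Log2 fold change (cisplatin over PBS) of the 8 tested lncRNAs: black circles give edgeR on counts with the 95% interval, triangles edgeR with the length correction and squares limma on log2(TPM + 1). KCNQ1OT1 moves from -0.998 to -0.01 with the length correction, and NEAT1 from -0.55 on counts to 0.29 on TPM.

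The fold changes of all tested genes moved with transcript length. The median log2 change was 0.24 over 1472 genes of up to 1000 bases, -0.20 over 2011 genes of 4000 to 6000 bases and -0.44 over 102 genes of 10000 to 20000 bases. Of the 8 tested genes above 20000 bases, 5 were lower and 0 higher at the adjusted threshold of edgeR. They include TTN (-1.14) and HELLPAR (-0.94) beside KCNQ1OT1, and also PPM1F-AS1, which was not called (0.14). At the lengths of the members a smooth through all genes lay at -0.97 for KCNQ1OT1, -0.26 for NEAT1, -0.11 for MALAT1, -0.22 for TUG1, -0.23 for NORAD, 0.16 for PVT1, 0.27 for CYTOR and 0.04 for MIR22HG. Few tested genes are near KCNQ1OT1 in length, and it is itself among the 8 above 20000 bases. The span of the smooth also takes in many shorter genes, so its value at KCNQ1OT1 is not set by those 8 alone. How much the long and the shorter genes each weigh in that value was not tested.

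When this smooth was taken out library by library, KCNQ1OT1 stood at -0.01 (edgeR adjusted p = 0.933), NEAT1 at -0.29 (0.113) and CYTOR at 0.07 (0.681), and none of the 3 kept its call. MIR22HG kept it, at 0.65 (edgeR adjusted p = 0.0276). TUG1 and NORAD changed sign, to 0.05 and 0.07, and neither was called. Mean fragment lengths were 338, 349 and 351 bases with PBS and 341, 342 and 325 with cisplatin, which overlap. What the length trend itself comes from was not tested.

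**Figure D4:**
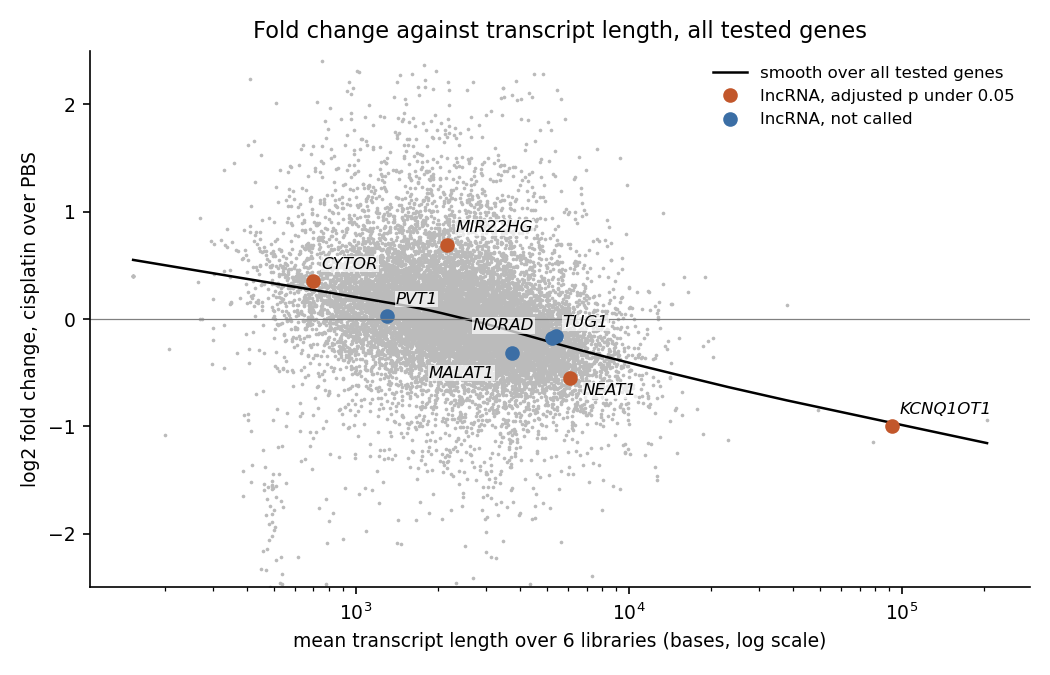
Log2 fold change against mean transcript length (log axis) for the 15063 tested genes (grey points), the smooth through them (line) and the 8 tested lncRNAs, orange where called and blue where not; 20 genes lie beyond the axis of ± 2.5. KCNQ1OT1, at 91667 bases, lies on the line near -1, and MIR22HG lies above it.

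Among the 6 lncRNAs with several transcripts, the mean length was shorter without overlap in 4 (NEAT1, MALAT1, TUG1 and CYTOR) and longer in none. Over all tested genes of varying length, 10.4% were shorter and 8.03% longer without overlap. In size, only NEAT1 stood far out. Of these 12873 genes, 28 had a length ratio at or below that of NEAT1, against 957 for CYTOR, 2399 for MALAT1 and 2545 for TUG1. Each of the 4 had the smallest exact permutation p that 3 against 3 allows, 0.1, or 0.15 adjusted over 6. MIR22HG, at 2332 ± 439 and 1987 ± 140 bases, and PVT1, at 1306 ± 40.2 and 1294 ± 61.8 bases, overlapped.

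**Figure D5:**
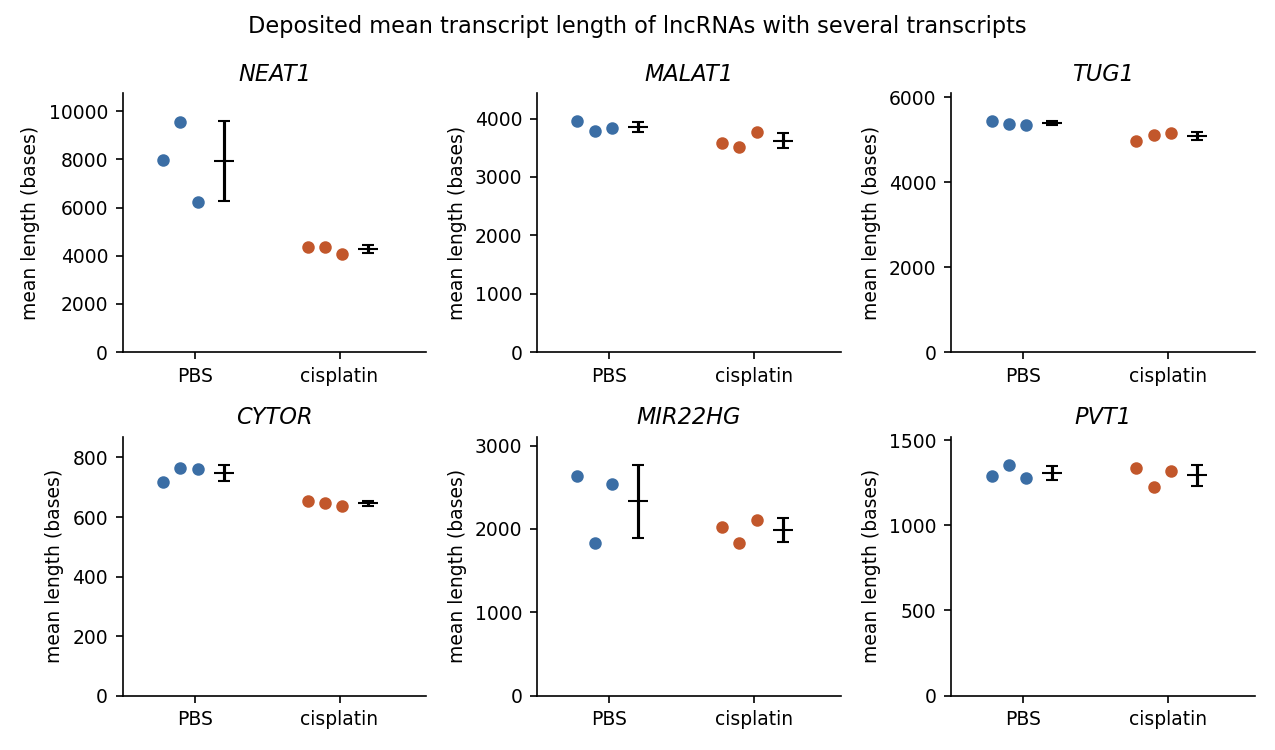
Deposited mean transcript length in bases (linear axis from 0) of the 6 lncRNAs with several transcripts, 1 point per library, tick at the mean, bar ± 1 SD of 3 libraries. NEAT1 drops from 6240 to 9561 bases with PBS to 4081 to 4379 with cisplatin, MALAT1, TUG1 and CYTOR are shorter by smaller amounts, and MIR22HG and PVT1 overlap.

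Other noncoding RNAs gave a wider view. Of 25 other well-known lncRNAs tested, some of them low here, 7 rose and 3 fell (median 0.07), against 15.2% higher and 14.6% lower over the tested lncRNA genes. UCA1, a lncRNA first described in bladder cancer, rose by 1.88 ± 0.33 on the log2 scale (0.486 to 1.85 CPM, edgeR adjusted p = 0.00105), HOTAIR, a transcript of the HOXC cluster, by 0.81 ± 0.16 (4.68 to 8.15 CPM, 0.00182) and ZFAS1, a snoRNA host, by 0.60 ± 0.11 (52.7 to 79.5 CPM, 0.00162). PCBP1-AS1 and PSMA3-AS1 fell by 0.39 and 0.42. After the length correction the counts for these 25 were 3 higher and 5 lower, and on log2(TPM + 1) with limma 3 and 1. They were 4 and 0 without cisplatin replicate 1, and, of 24 tested, 3 and 3 without cisplatin replicate 3 and 4 and 3 without PBS replicate 3.

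Of 13 tested lncRNAs linked to p53 or to DNA damage, 3 rose and 1 fell (median 0.22), against the same 15.2% and 14.6%. HOTAIR, GAS5 and MIAT, 3 of these 4, also stand in the list of 25. MIAT was not called without PBS replicate 1 or without any single cisplatin library, which left 2 higher and 0 lower each time by edgeR (0 to 2 lower at an unadjusted p under 0.05). LINC00467 rose by 0.83 ± 0.14 (6.12 to 10.9 CPM, edgeR adjusted p = 6.3e-04) and GAS5, a snoRNA host, by 0.22 (254 to 296 CPM, edgeR adjusted p = 0.0490). MIAT, an abundant nuclear RNA, fell by 0.23 (1181 to 1009 CPM, edgeR adjusted p = 0.0425). Of 14 tested microRNA host transcripts, MIR22HG among them, 2 rose and 2 fell, again near the lncRNA background: MIR1915HG rose by 0.44, and MIR600HG and MIRLET7BHG fell by 1.04 and 0.70 (edgeR adjusted p = 0.00978, 0.00108 and 0.0215). These counts were unstable, with 0 higher and 4 lower without cisplatin replicate 3, 1 and 1 without PBS replicate 1 or cisplatin replicate 2 and with DESeq2, and 4 and 5 after the length correction. Leaving out PBS replicate 2 or cisplatin replicate 1 gave 2 and 1. For comparison, 5 of 17 tested p53 target genes rose and 3 fell, against 18.9% higher and 19.3% lower over all tested genes; CDKN1A, the cell-cycle inhibitor p21, rose by 1.18 (6.86 to 15.4 CPM, edgeR adjusted p = 1.8e-04), and MDM2, which degrades p53, fell by 0.46 (edgeR adjusted p = 0.0145).

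The genes whose log2 CPM moved most like a member over the 6 libraries are given as a description with no p. For MALAT1 they were PRPF4B, a kinase of the splicing machinery, with Pearson's r = 0.997, KNL1 with 0.990 and ZNF438 with 0.984. For NEAT1 they were DNAJC2 (0.997), PDCD5 (0.993) and RNF115 (0.992), and for KCNQ1OT1 PRTG (0.999), RBAK (0.998) and ZNF354A (0.998). The 6 points share the 2 groups and the scaling of each library, and the 3 genes were the highest of 15063.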

How the data were processed

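The authors deposited, per the file headers, 1 RSEM-style table per library with expected counts per gene, which are not normalized, TPM values, FPKM values (not used here) and transcript and effective lengths in bases. Reads were aligned with STAR 2.7.9 to GRCh38, per the submitters' processing notes. Not given in the sources used here are the quantifier's version, its annotation release, the strand setting and whether poly(A) RNA was selected. TPM sums to a fixed total and keeps no depth. Positions, biotypes and transcript sequences came from GENCODE 29, which placed 58352 of 61552 genes; symbols matched 61399.

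Rounded expected counts went into edgeR 4.0.16 under R 4.3.3 (filterByExpr, minimum count 10 and total 15; TMM; quasi-likelihood test on group; Benjamini-Hochberg, called under 0.05), which left 15063 genes. Standard errors are the log2 fold change over the square root of F, and 95% intervals include the spread between libraries. Libraries of one group differed by a chi-square of 2.98 to 21.2 per degree of freedom, so none was counted as a repeat. limma 3.58.1 and DESeq2 1.42.0 served as alternatives, and pseudocounts of 1 and 0.1 were used on TPM. The length correction used per-library offsets from a lowess smooth (span 0.5). The analysis was tested on simulated counts.

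The 9 lncRNAs and the 18 gene lists (302 of 308 entries matched) were chosen with earlier results of these data known. Named genes are all members, up to 3 called genes per list and direction with the smallest adjusted p, tested neighbours, and the 3 genes most like MALAT1, NEAT1 and KCNQ1OT1; core partners not called were named as well.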

Additional observations from a re-analysis of the deposited data

How the results depend on the processing

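The causes of the changes below were not tested. With 2 members higher and 2 lower as reported, the filter of 50 counts in 3 libraries left 1 higher (MIR22HG was not tested there), DESeq2 0 higher (2 at an unadjusted p under 0.05, and 2 with edgeR and limma-voom), log2(TPM + 1) 0 lower by limma (1 unadjusted, 2 with edgeR), log2(TPM + 0.1) 1 higher and 1 lower, and the length correction 1 higher and 0 lower (1 unadjusted). Leaving out 1 library gave 0 to 2 higher and 2 to 3 lower. Over all genes, 2851 were higher and 2901 lower; limma on log2(TPM + 1) gave 1208 and 1653, on log2(TPM + 0.1) 1186 and 1629, and leaving out 1 library 2137 to 2718 and 2068 to 2595. Of the tested lncRNA genes, 237 higher and 228 lower became 117 and 93 with the filter of 50 counts, 155 and 129 with DESeq2, 138 and 156 with log2(TPM + 1), 131 and 145 with log2(TPM + 0.1), and 139 to 195 lower with 1 library left out. Directions turned for NEAT1 (0.29 on log2(TPM + 1), 0.30 on log2(TPM + 0.1)), for TUG1 (0.045) and NORAD (0.070) with the length correction, for MALAT1 without PBS replicate 2 (-0.52 to 0.013 over the libraries left out), and for PVT1 with the length correction (-0.13), on both TPM scales (-0.047 and -0.049) and with 1 library left out (-0.11 to 0.11). The length ratio of PVT1 was -0.038 to 0.025 (log2) with 1 library left out, above 0 without PBS replicate 2 and without cisplatin replicate 2. The log2 length ratio of NEAT1 stayed between -1.04 and -0.73 with 1 library left out and was -0.94 on effective length; that of CYTOR went from -0.21 to -0.38 on effective length, and that of MIR22HG from -0.23 to between -0.38 and -0.13 with 1 library left out. With the replicate block, 2 members were higher and 2 lower, and 2853 and 2966 of all genes. After group means were taken out, same-numbered libraries correlated at 0.07, 0.14 and -0.09, and the other pairs at -0.20 to 0.14. The labels give only the number, and these correlations cannot settle whether same-numbered libraries shared a culture or batch. The sum of CYTOR and MIR4435-2HG was added after seeing the data.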
